A study of Mus musculus with 48 samples.

Results

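The 10 genes described here encode subunits of the AMPA and NMDA receptors, the ionotropic glutamate receptors. They are 10 of the 24421 gene symbols in each of the 6 deposited tables of astrocyte RNA, 4 of them AMPA receptor genes (Gria1, Gria2, Gria3 and Gria4) and 6 of them NMDA receptor genes (Grin1, Grin2a, Grin2b, Grin2c, Grin2d and Grin3a). The genes were chosen by their symbols, and the family was picked with earlier results of the same tables in view. One of those results was the increase of Grin2c in cortex between P1 and P14, so the cortex levels of Grin2c are given as a description with no test. The remaining NMDA receptor gene, Grin3b, is not among the 10 and reached at most 6.53 normalized counts in any library.

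RNA was sequenced from mouse astrocytes of 3 regions, the olfactory bulb, the hippocampus and the cortex, in 48 libraries that form 15 groups. The developmental groups held 3 libraries each from postnatal day 1 (P1), P7 and P14 in each region, except for 4 from cortex at P14, and their labels give no genotype or treatment. At P28 the labels give the genotype as Gabbr1 control or Gabbr1 cKO, a conditional knockout of the gene of the first GABA-B receptor subunit, with 4 and 4 libraries from cortex, 2 and 4 from hippocampus and 3 and 3 from olfactory bulb. Tamoxifen is named as the treatment of control and cKO alike in all P28 libraries of hippocampus and olfactory bulb and in 3 of the 8 from cortex (control replicates 3 and 4 and cKO replicate 4), and no treatment is named for the other 5. How the astrocytes were isolated, the driver of recombination, the sex and the number of animals per library are not given in the sources used here. Since the labels do not say that the libraries of a group came from separate animals, p-values measure only the spread between these libraries, which may be technical. Replicate numbers follow the order of deposit and only name a library.

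AMPA receptors are tetramers of the subunits GluA1 to GluA4, encoded by Gria1 to Gria4, and carry most fast excitatory current. GluA2, whose RNA is edited at one codon, makes the channel nearly impermeable to calcium. NMDA receptors need the GluN1 subunit, encoded by Grin1, together with GluN2 subunits (Grin2a to Grin2d) or GluN3 subunits (Grin3a and Grin3b). The GluN2 subunit sets the channel's kinetics and its block by magnesium, and GluN3A lowers calcium entry and magnesium block. Neurons express many of these genes strongly, oligodendrocyte precursors express several of them, and Grin2c is known as a GluN2 gene of mature forebrain astrocytes.

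The libraries held between 1773226 and 15008466 reads assigned to genes. Olfactory bulb libraries held 5473837 to 9062118 at P1 and 1773226 to 2669394 at P14. Those of hippocampus held 5098757 to 8986015 at P1 and 2539583 to 4248087 at P14. A read was worth at most 0.614 normalized counts at P1 and at least 1.07 at P14 in both regions. Low or absent values at P14 there come from shallower libraries than those at P1. The ribosomal RNA precursor Rn45s took 13.7% to 38.0% of the reads assigned to genes in 46 libraries, 0.476% in control replicate 2 of the P28 olfactory bulb and 0.594% in cKO replicate 2 of the P28 hippocampus. Of 12 astrocyte marker genes, 11 rose from P1 to P14 in cortex and 12 in each of the other regions, and none fell. At P28 the targeted gene, Gabbr1, ranged from 927 to 1930.1 normalized counts in the cortex controls and from 89.8 to 211 in cortex cKO, from 779.8 to 824 against 152 to 379.9 in hippocampus, and from 184 to 318 against 63.6 to 99.5 in the olfactory bulb, so no library overlapped the other genotype.

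The genes lie on 9 chromosomes of the mm10 build: Gria1 at chr11:57011387-57330244, Gria2 at chr3:80681450-80802835, Gria3 at chrX:41400854-41678601, Gria4 at chr9:4417896-4796234, Grin1 at chr2:25291181-25319187, Grin2a at chr16:9567898-9995560, Grin2b at chr6:135713233-136173511, Grin2c at chr11:115249169-115267243, Grin2d at chr7:45831883-45878378 and Grin3a at chr4:49661611-49845744, in the GENCODE M21 annotation. All 10 are annotated as protein coding. Exons of Grin1 share 1307 bases with the antisense gene Grin1os, those of Grin2d share 643 bases with antisense Gm45441, and those of Grin2c share 91 bases with antisense Gm25837. Exons of Grin2b share 143, 86 and 49 bases with antisense Gm14329, Gm22892 and Gm26653. Whether the authors counted reads by strand is not given in the sources used here, so reads from these stretches cannot be told apart from those of the partner. On the same strand, where strand would not separate the reads, exons of Gria2 share 111 bases with Gm25749, those of Gria3 share 85 with Gm22413 and those of Gria4 share 19 with Gm23811.

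RefSeq promoter windows (GRCm38.p6) were found for 5 of the 10 genes: Gria2, Gria4, Grin1, Grin2c and Grin2d. The 250 bases upstream of the start site are shown for 3 of them, Grin2c, which increased in every region, and Grin1 and Gria2, an NMDA and an AMPA receptor gene among those that fell in cortex. Capitals mark matches to the GC box GGGCGG and to the E box CANNTG on either strand. All 3 genes lie on the minus strand, and the sequences read 5′ to 3′ along the gene from chr11:115267244-115267493, chr2:25319188-25319437 and chr3:80802836-80803085.
Grin2c: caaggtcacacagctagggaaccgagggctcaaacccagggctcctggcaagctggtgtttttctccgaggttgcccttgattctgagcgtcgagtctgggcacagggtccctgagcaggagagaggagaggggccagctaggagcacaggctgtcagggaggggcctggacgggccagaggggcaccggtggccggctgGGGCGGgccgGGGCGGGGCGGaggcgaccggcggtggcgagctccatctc
Grin1: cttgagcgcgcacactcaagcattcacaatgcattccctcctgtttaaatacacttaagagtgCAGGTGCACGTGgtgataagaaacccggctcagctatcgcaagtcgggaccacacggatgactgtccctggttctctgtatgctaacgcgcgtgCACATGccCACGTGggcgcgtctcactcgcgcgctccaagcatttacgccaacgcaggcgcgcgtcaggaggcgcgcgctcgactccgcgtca
Gria2: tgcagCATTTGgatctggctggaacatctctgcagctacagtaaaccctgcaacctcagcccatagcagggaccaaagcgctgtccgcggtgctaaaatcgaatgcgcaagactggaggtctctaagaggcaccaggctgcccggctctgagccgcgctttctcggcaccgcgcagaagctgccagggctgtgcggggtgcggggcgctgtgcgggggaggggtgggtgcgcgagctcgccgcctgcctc
The Grin2c window held 3 GC boxes, 2 of which share a base, and 0 E boxes. The Grin1 window held 0 GC boxes and 4 E boxes, and the Gria2 window 0 and 1. Among all 32851 RefSeq mouse promoter windows of the same length, 32.7% held a GC box and 66.2% an E box. None of the 3 windows held the CRE TGACGTCA or the TATA box TATAAA, which 1.55% and 12.4% of all windows held. The share of G and C was 68.8% for Grin2c, 58.8% for Grin1 and 64.8% for Gria2.

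Values below are normalized counts, the reads of a gene divided by a size factor of its library. Each region's developmental libraries and each region's P28 libraries were scaled separately, so each test stays inside 1 table, and differences between regions or between P14 and P28 were not tested. A gene is said to have risen or fallen where limma's test on log2(normalized count + 1), adjusted by Benjamini-Hochberg over all genes with a mean of at least 10 in the table, gave an adjusted p under 0.05, and log2 differences are on that scale, which makes the changes of low genes look smaller. Of the 10 members, 9 passed the level filter in each developmental table, and Grin2d did not in any. In these bulk samples, fewer cells of a type and less RNA per cell cannot be told apart.

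**Figure D1:**
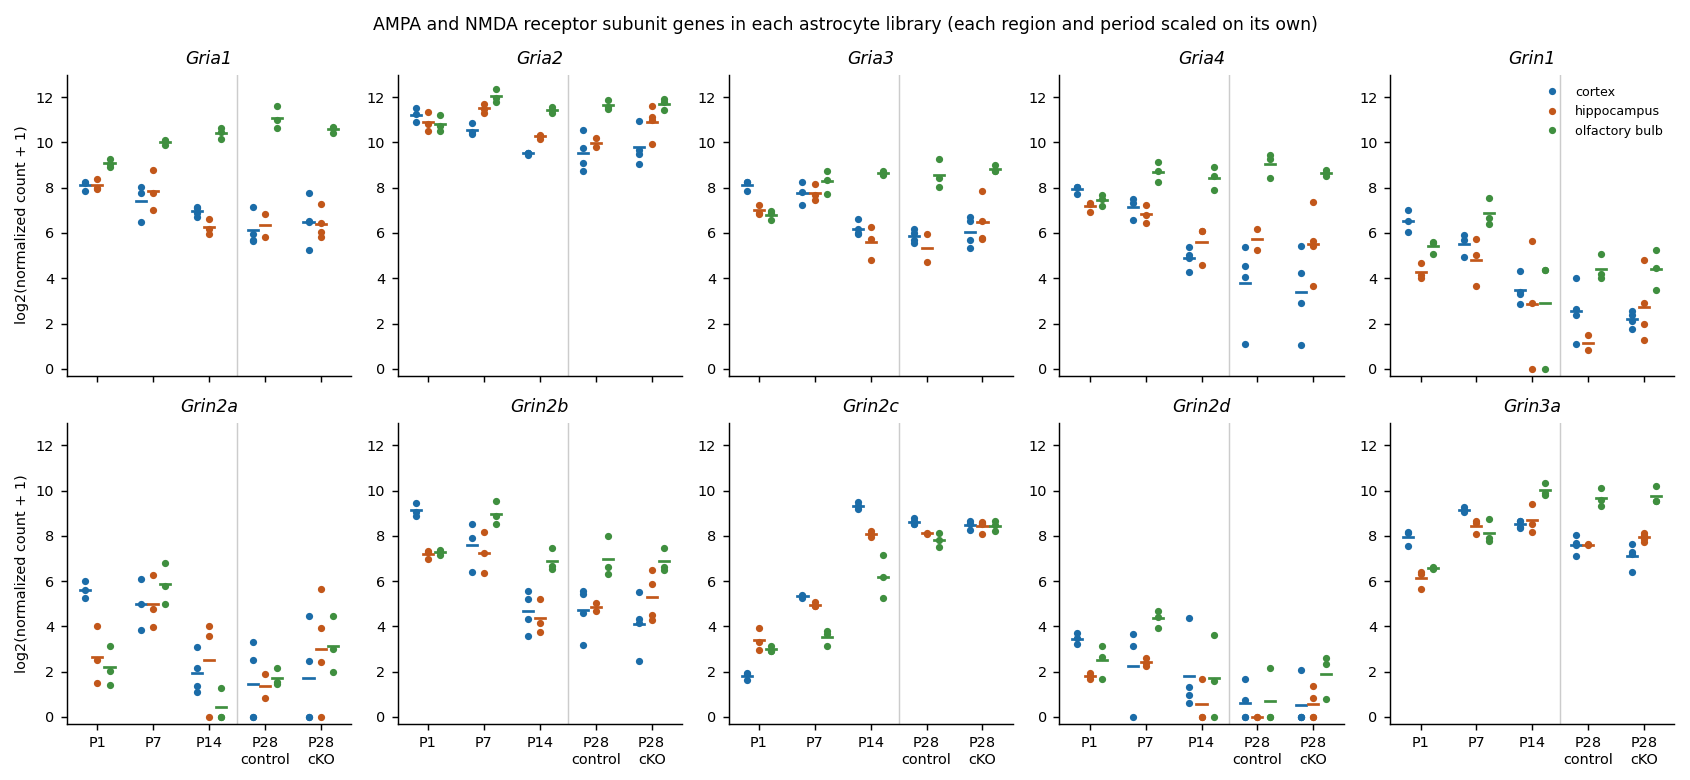
Level of each of the 10 subunit genes in every library, as log2(normalized count + 1) on the vertical axis, by age and P28 genotype on the horizontal axis; each point is a library, each bar a group mean, and colours are regions. Grin2c is higher at P14 than at P1 in all regions. Gria1 at P14 lies below its P1 level in cortex and hippocampus and above it in the olfactory bulb.

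In cortex the 4 AMPA receptor genes fell between P1 and P14. Gria2 was at 2928, 2435 and 1892 normalized counts in the 3 P1 libraries and at 740.01, 738, 745 and 697 in the 4 P14 libraries. It fell by 1.70 on the log2 scale (SE 0.14, adjusted p = 2.0e-07), and the groups did not overlap. Gria1, whose product GluA1 is delivered to synapses in an activity-dependent way, was at 306, 296 and 232 at P1 and 136, 141, 118 and 105 at P14. Gria1 fell by 1.14 on the log2 scale (SE 0.28, adjusted p = 0.00268), the smallest fall of the 4. Gria3 was at 307, 302 and 229 at P1 and 63.2, 60.4, 97.4 and 71.1 at P14. Gria4, which encodes the subunit with fast gating in immature and some inhibitory neurons, was at 261, 262 and 209 and then at 18.5, 28.9, 40.0 and 31.7. Gria3 fell by 1.94 on the log2 scale (SE 0.22, adjusted p = 5.2e-06). Gria4 fell by 3.03 on the log2 scale (SE 0.26, adjusted p = 3.1e-07), the largest fall of the 4, and neither gene's groups overlapped.

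The cortical NMDA receptor genes moved in both directions. Grin1, the obligatory subunit gene, was at 127, 90.9 and 64.4 normalized counts at P1, 50.2, 29.4 and 58.9 at P7 and 9.46, 18.9, 8.83 and 6.23 at P14. Grin2b, the main GluN2 gene of the immature forebrain, was at 705, 537 and 473, then at 235, 83.5 and 361 and then at 18.9, 35.8, 45.7 and 10.9. Every P14 library lay below every P1 library for both genes. Grin1 fell by 3.06 on the log2 scale (SE 0.37, adjusted p = 7.3e-06) from P1 to P14. Grin2b fell by 4.48 on the log2 scale (SE 0.48, adjusted p = 2.4e-06), the largest P1 to P14 fall of any member in the 3 regions. Grin2a, the GluN2 gene that rises in neurons as synapses mature, was at 37.5, 62.5 and 47.7 at P1 and 1.13, 7.55, 3.47 and 1.56 at P14. Grin2a fell by 3.69 on the log2 scale (SE 0.56, adjusted p = 6.1e-05).

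Grin2c, the member by which the family came into view, was at 2.84, 2.77 and 2.05 normalized counts in cortex at P1, 36.9, 41.0 and 39.0 at P7 with 579.6, 628, 728 and 627 at P14. No library of one age reached the range of another, and mean levels were 2.55 ± 0.436 and 641 ± 62.5 (SD, n = 3 and 4) at P1 and P14, a log2 difference of 7.50 that is given as a description only. Grin3a was highest at P7, at 567.8, 533 and 616, against 184, 281 and 284 at P1 and 404, 402, 321 and 331 at P14. It rose by 1.22 on the log2 scale (SE 0.16, adjusted p = 7.2e-05) from P1 to P7 and fell by 0.65 on the log2 scale (SE 0.15, adjusted p = 0.00281) from P7 to P14. Its level at P14 was still above that at P1 (log2 difference 0.56, adjusted p = 0.0050), with every P14 library above every P1 library, and the difference was 0.36 without P1 replicate 1. Grin2d stayed under the level filter, at 11.9, 10.1 and 8.21 at P1 and 1.51, 19.5, 0.946 and 0.519 at P14, so that 1 P14 library was above all P1 libraries and the other 3 below.

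Counted over the 9 members tested in cortex, 2 were higher and 7 lower at P14 relative to P1, with a median log2 difference of -1.94, Grin2c being 1 of the 2 counted as higher. Over all 11822 genes tested, 24.0% were called higher and 40.3% lower, with a median of -0.27. The choice of the family drew on this comparison, so nothing is read from the member count. Of the genes called, 37.4% were higher with the deposited scaling, 47.8% with TMM scaling and 51.2% with quantile normalization. The 3 comparisons of ages within a region share libraries. From P7 to P14, with Grin2c left out as a description, 0 members rose and 7 of 8 fell, beside 18.6% and 31.3% of all genes, and Gria1 was not called (log2 difference -0.47, adjusted p = 0.183) except without P7 replicate 2 (adjusted p = 6.1e-04). There the called genes were 37.3% higher with the deposited scaling, 48.6% with TMM and 50.3% with quantile normalization. From P1 to P7, likewise without Grin2c, 1 member rose (Grin3a) and 3 fell (Gria2, Gria4 and Grin2b), beside 15.6% and 18.1% of all genes. Nothing is read from these counts either.

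The P1 to P7 falls of Gria4 and Grin2b in cortex depended on which libraries were kept. Gria4 (log2 difference -0.80, adjusted p = 0.0409) was no longer called without P1 replicate 1, 2 or 3 (adjusted p = 0.11, 0.112 and 0.0507) or without P7 replicate 1 or 2 (adjusted p = 0.0591 and 0.187). Grin2b (log2 difference -1.55, adjusted p = 0.0317) was no longer called without P1 replicate 1 or 2 (adjusted p = 0.0957 and 0.0653) or P7 replicate 1 or 2 (adjusted p = 0.0508 and 0.141). Without P7 replicate 2, the library lowest in Gria1, Gria3, Gria4, Grin1, Grin2a and Grin2b at that age, the log2 differences were -0.52 for Gria4 and -0.95 for Grin2b. The same library had the lowest sum of neuron markers at P7 (1885, against 3955 and 4794). Its endothelial sum was also the lowest (359, against 471 and 383). This library was highest in microglia (1562, against 496 and 572) and astrocyte markers (123687, against 98507 and 108013). The oligodendrocyte precursor (2302, against 1935 and 1658) and mature oligodendrocyte sums (1049, against 902 and 867) were highest there too. The part of these cells in the levels of the receptor genes was not tested. Gria1 was called lower without P7 replicate 3 (adjusted p = 0.0204), and Grin1 without P1 replicate 3 or P14 replicate 2 or 4 (adjusted p = 0.0475, 0.0321 and 0.0484).

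**Figure D2:**
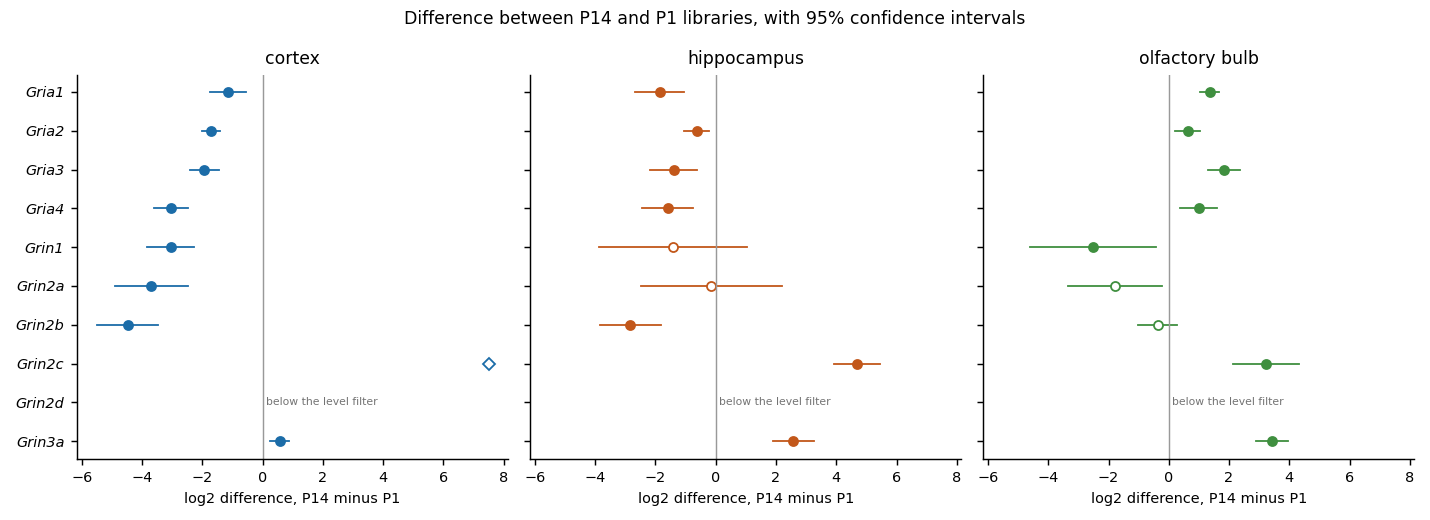
Log2 difference between P14 and P1 for each subunit gene in the 3 regions, with bars for 95% confidence intervals from limma; filled points passed an adjusted p of 0.05, open points did not, and the open diamond is Grin2c in cortex, shown without a test. The AMPA receptor genes lie left of 0 in cortex and hippocampus and right of 0 in the olfactory bulb, and Grin2c and Grin3a lie right of 0 in all 3 regions.

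In hippocampus the AMPA receptor genes also fell from P1 to P14. Gria2 was at 1810.2, 1451 and 2615 normalized counts at P1, 2850.1, 3347 and 2546 at P7 and 1302, 1151 and 1243 at P14, with its highest mean at P7. Gria2 fell by 0.63 on the log2 scale (SE 0.19, adjusted p = 0.0157) from P1 to P14, a call that was lost without P1 replicate 3 (log2 difference -0.40, adjusted p = 0.0628) and with no trend of the variance on the mean level (adjusted p = 0.0666). Gria1 was at 243, 254 and 335 at P1 and 70.9, 97.0 and 60.9 at P14 and fell by 1.86 on the log2 scale (SE 0.37, adjusted p = 0.00134). Gria3 was at 114, 152 and 118 and then 26.9, 51.8 and 77.0, and Gria4 at 158, 119 and 156 and then 66.6, 66.2 and 23.3. Neither gene's P14 libraries reached the P1 range. Gria3 fell by 1.40 on the log2 scale (SE 0.35, adjusted p = 0.00621), and Gria4 fell by 1.59 on the log2 scale (SE 0.39, adjusted p = 0.00528).

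Among the hippocampal NMDA receptor genes, Grin2b fell while Grin2c and Grin3a rose. Grin2b was at 126, 154 and 162 normalized counts at P1, 80.9, 148 and 284 at P7 and 35.5, 16.5 and 12.5 at P14, and fell by 2.84 on the log2 scale (SE 0.46, adjusted p = 3.5e-04) from P1 to P14. Grin2c was at 14.2, 8.91 and 6.76 at P1, 33.2, 28.8 and 28.4 at P7 and 295, 272 and 244 at P14. Grin2c rose by 4.68 on the log2 scale (SE 0.35, adjusted p = 7.1e-07), with no overlap between any ages. Grin3a was at 78.7, 83.8 and 49.2 at P1 and 369, 675 and 287 at P14, and rose by 2.58 on the log2 scale (SE 0.31, adjusted p = 4.1e-05). Grin1 was at 15.0, 24.5 and 16.6 at P1 and at 6.45, 49.6 and 0 at P14, and Grin2a at 4.63, 1.78 and 15.4 and 15.0, 0 and 10.7. The 3 P14 libraries disagreed for both genes, and neither was called (adjusted p = 0.322 and 0.92). Without P14 replicate 2, its highest library, Grin1 was called lower than at P1 (log2 difference -2.82, adjusted p = 0.0178) and than at P7 (adjusted p = 0.0123). Grin2d was between 2.23 and 2.85 at P1 and between 0 and 2.21 at P14.

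Of the 9 members tested in hippocampus, 2 were higher and 5 lower at P14 relative to P1, with a median log2 difference of -1.40, against 21.0% and 28.5% of 11578 genes and a median of -0.29. From P7 to P14, 1 rose and 5 fell, against 12.5% and 17.7% of all genes. The P7 to P14 fall of Gria4 (log2 difference -1.24, adjusted p = 0.032) was not called without P1 replicate 1 or 3 (adjusted p = 0.0501 and 0.0506), P7 replicate 2 or 3 (adjusted p = 0.0906 and 0.12) or P14 replicate 3, where the log2 difference was -0.75 (adjusted p = 0.0538). Among the left-out libraries, Grin2a was called lower there without P14 replicate 1 alone (adjusted p = 0.0486). From P1 to P7, 3 rose (Gria2, Grin2c and Grin3a) and 0 fell, against 11.2% and 6.92% of all genes. The rise of Gria2 (log2 difference 0.61, adjusted p = 0.0429) was lost without any 1 of 6 libraries, P1 replicates 1 and 2, P7 replicates 1, 2 and 3 and P14 replicate 3 (adjusted p = 0.128, 0.159, 0.103, 0.166, 0.0581 and 0.0562). Gria3 and Grin2a were called higher at P7 without P14 replicate 1 (adjusted p = 0.0447) and without P14 replicate 2 (adjusted p = 0.044).

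In olfactory bulb the AMPA receptor genes rose. Gria1 was at 609, 486 and 524 normalized counts at P1, 1085, 958 and 1092 at P7 and 1429, 1141 and 1587 at P14, with no overlap between ages. Gria1 rose by 1.35 on the log2 scale (SE 0.15, adjusted p = 2.1e-05) from P1 to P14. Gria3 was at 93.9, 123 and 118 at P1 and 374, 425 and 390.1 at P14, and rose by 1.83 on the log2 scale (SE 0.24, adjusted p = 7.1e-05). Gria4 was at 205, 178 and 146 and then 481, 371 and 236, and rose by 0.99 on the log2 scale (SE 0.28, adjusted p = 0.0113). Gria2 went from 1447, 1685 and 2363 at P1 through 4045, 5189.8 and 3528 at P7 to 2791, 3008 and 2553 at P14, so P7 was its highest age. Gria2 at P14 was above P1 (log2 difference 0.63, adjusted p = 0.0144), but not called with quantile normalization (log2 difference 0.21, adjusted p = 0.499), with no variance trend (adjusted p = 0.0521) or without P1 replicate 1 or 2 (adjusted p = 0.0671 and 0.0505).

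Several NMDA receptor genes of the olfactory bulb peaked at P7. Grin2b was at 164, 142 and 156 normalized counts at P1, 741, 468 and 362 at P7 and 177, 101 and 93.0 at P14. It rose by 1.70 on the log2 scale (SE 0.29, adjusted p = 0.0041) from P1 to P7, then fell by 2.07 on the log2 scale (SE 0.29, adjusted p = 2.0e-04), and P14 was not called against P1 (log2 difference -0.37, adjusted p = 0.295). Grin2a was at 7.89, 3.08 and 1.65, then 111, 54.3 and 30.3, then 0, 0 and 1.39. It fell by 5.44 on the log2 scale from P7 to P14 (adjusted p = 1.3e-04) and, from 308 reads in the P7 libraries together to 1 in the P14 libraries, was 127-fold lower on the normalized scale (95% exact binomial interval 22.7 to 5048, for counting error only). Grin1 was at 48.04, 46.2 and 33.1 at P1, 187, 100.1 and 82.5 at P7 and 19.9, 0 and 19.4 at P14. Grin1 fell by 3.95 on the log2 scale (SE 0.95, adjusted p = 0.00578) from P7 to P14, and its P1 to P7 difference was not called (log2 difference 1.44, adjusted p = 0.418), although every P7 library was above every P1 library. Without P14 replicate 2, where it was at 0, the P7 to P14 log2 difference was -2.50 and that from P1 to P14 was -1.05, both called. Grin2d, under the level filter, was at 20.3, 14.3 and 24.9 at P7, above 7.89, 5.28 and 2.21 at P1 and 1.99, 0 and 11.1 at P14.

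Grin2c and Grin3a rose in the olfactory bulb too. Grin2c was at 6.45, 6.60 and 7.72 normalized counts at P1, 11.7, 12.9 and 7.71 at P7 and 71.6, 37.2 and 142 at P14. Its P1 and P7 libraries overlapped (adjusted p = 0.597), and from P1 to P14 it rose by 3.21 on the log2 scale (SE 0.50, adjusted p = 2.5e-04). Grin3a was at 94.6, 92.0 and 98.2 at P1, 214, 423 and 238 at P7 and 1272, 882 and 958 at P14, with no overlap between ages, and rose by 3.42 on the log2 scale (SE 0.24, adjusted p = 1.0e-06) from P1 to P14.

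Of the 9 members tested in the olfactory bulb, 6 were higher and 1 (Grin1) lower at P14 relative to P1, with a median log2 difference of 0.99, against 24.8% and 31.4% of 11490 genes and a median of -0.24. The fall of Grin1 (log2 difference -2.51, adjusted p = 0.0424) was not called without any 1 of P1 replicates 1, 2 and 3 (adjusted p = 0.10, 0.0962 and 0.0733) or P7 replicates 1, 2 and 3 (adjusted p = 0.0573, 0.0597 and 0.0589), and was -1.05 without P14 replicate 2. Grin2a (adjusted p = 0.052) was called lower without P1 replicate 3 or P14 replicate 3 (adjusted p = 0.0489 and 0.0227), with at most 1 read in any P14 library. From P1 to P7, 7 rose and 0 fell, against 7.59% and 2.98% of all genes. Over these ages the oligodendrocyte precursor marker sum was 133 to 168 at P1 and 539.9 to 1120.2 at P7 (6 of 6 tested higher), the microglia sum 44.1 to 57.7 at P1 and 173 to 379 at P7 (4 of 5 tested higher, 0 lower) and the neuron sum 16998 to 19946 at P1 and 10076 to 15316 at P7 (3 of 15 higher, 2 lower). The astrocyte sum was 5060 to 7178 at P1 and 10645.5 to 19484.5 at P7 (8 of 12 higher, 0 lower). The endothelial sum was 19.8 to 25.8 at P1 and 96.5 to 132 at P7 (3 of 7 tested higher, 0 lower). The mature oligodendrocyte sum was 103 to 201 at P1 and 310 to 365 at P7 (2 of 4 tested higher, 0 lower). The part of any of these cells in the 7 rises was not tested. Among the 7, Gria4 was not called without P1 replicate 2 or 3 (adjusted p = 0.0551 and 0.0774) or P7 replicate 1 or 2 (adjusted p = 0.0821 and 0.0714). Grin2a was not called without P7 replicate 1 or 2 (adjusted p = 0.058 and 0.0502), and Grin1 was called without P14 replicate 2 (adjusted p = 0.0172).

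From P7 to P14 in the olfactory bulb, 3 members rose (Gria1, Grin2c and Grin3a) and 4 fell (Gria2, Grin1, Grin2a and Grin2b), against 20.4% and 26.6% of all genes. The fall of Gria2 was not called without P7 replicate 2 or P14 replicate 3 (adjusted p = 0.0922 and 0.0702). The rise of Gria1 (log2 difference 0.40, adjusted p = 0.0467) was lost with quantile normalization (log2 difference 0.07) and without any 1 of P1 replicates 1, 2 and 3 (adjusted p = 0.054, 0.0611 and 0.0691), P7 replicates 1, 2 and 3 (adjusted p = 0.0778, 0.139 and 0.0676) or P14 replicates 1 and 3 (adjusted p = 0.0961 and 0.137).

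Other settings of the test also ended or gave calls. In cortex from P1 to P7, Gria4 was not called with no filter, TMM scaling, edgeR or no variance trend (adjusted p = 0.0671, 0.0579, 0.0539 and 0.0732), nor Grin2b with no filter, DESeq2 or no trend (adjusted p = 0.0591, 0.10 and 0.0766). Grin1 was called lower there with a pseudocount of 8, DESeq2 or only the 2 ages fitted (adjusted p = 0.028, 0.0418 and 0.0319). The hippocampal P1 to P7 rise of Gria2 was lost with a pseudocount of 0.1, no filter, quantile normalization or no trend (adjusted p = 0.0567, 0.0575, 0.144 and 0.153), and the P7 to P14 fall of Gria4 with no trend or only 2 ages fitted (adjusted p = 0.0605 and 0.081). With only P1 and P7 fitted, Gria3 and Grin2a were called higher at P7 in hippocampus (adjusted p = 0.00842 and 0.016).

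In the olfactory bulb, the P1 to P14 fall of Grin1 was lost with a pseudocount of 0.1, no filter, no trend or only 2 ages fitted (adjusted p = 0.0844, 0.0568, 0.0732 and 0.0873), while Grin2a was called lower with a pseudocount of 0.1 or no trend (adjusted p = 0.0275 and 0.0354). From P7 to P14, Gria1 was not called with no filter, no trend or only 2 ages fitted (adjusted p = 0.060, 0.125 and 0.087), nor Gria2 with no trend (adjusted p = 0.0727). From P1 to P7, Gria4 was not called with no trend (adjusted p = 0.054) and Grin2a with a pseudocount of 0.1 (adjusted p = 0.0812), while DESeq2 and only 2 ages fitted called Grin1 higher (adjusted p = 0.0327 and 0.00428).

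To compare levels between subunit genes, normalized counts were divided by the kb of annotated exon of each gene. Among the GluN2 genes, Grin2b held most of the summed level per kb at P1 and Grin2c at P14. The Grin2b share was 86.4, 79.6 and 81.6% in the cortex P1 libraries, 59.0, 73.7 and 71.8% in hippocampus and 69.4, 71.5 and 76.2% in the olfactory bulb. The Grin2c share was 99.1, 96.3, 98.5 and 99.5% in the cortex P14 libraries, 96.3, 98.2 and 97.8% in hippocampus and 65.7, 64.6 and 83.7% in the olfactory bulb. At P7 it averaged 43.7% ± 20.1 (SD, n = 3) in cortex, 41.8% ± 16.3 (SD, n = 3) in hippocampus and 7.44% ± 2.03 (SD, n = 3) in the olfactory bulb, so the olfactory bulb libraries still had mainly Grin2b at that age. At P28 the Grin2c share averaged 98.0% ± 1.26 (SD, n = 4) in the cortex controls, 97.8% ± 0.226 (SD, n = 2) in the hippocampus controls and 88.6% ± 4.46 (SD, n = 3) in the olfactory bulb controls.

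**Figure D3:**
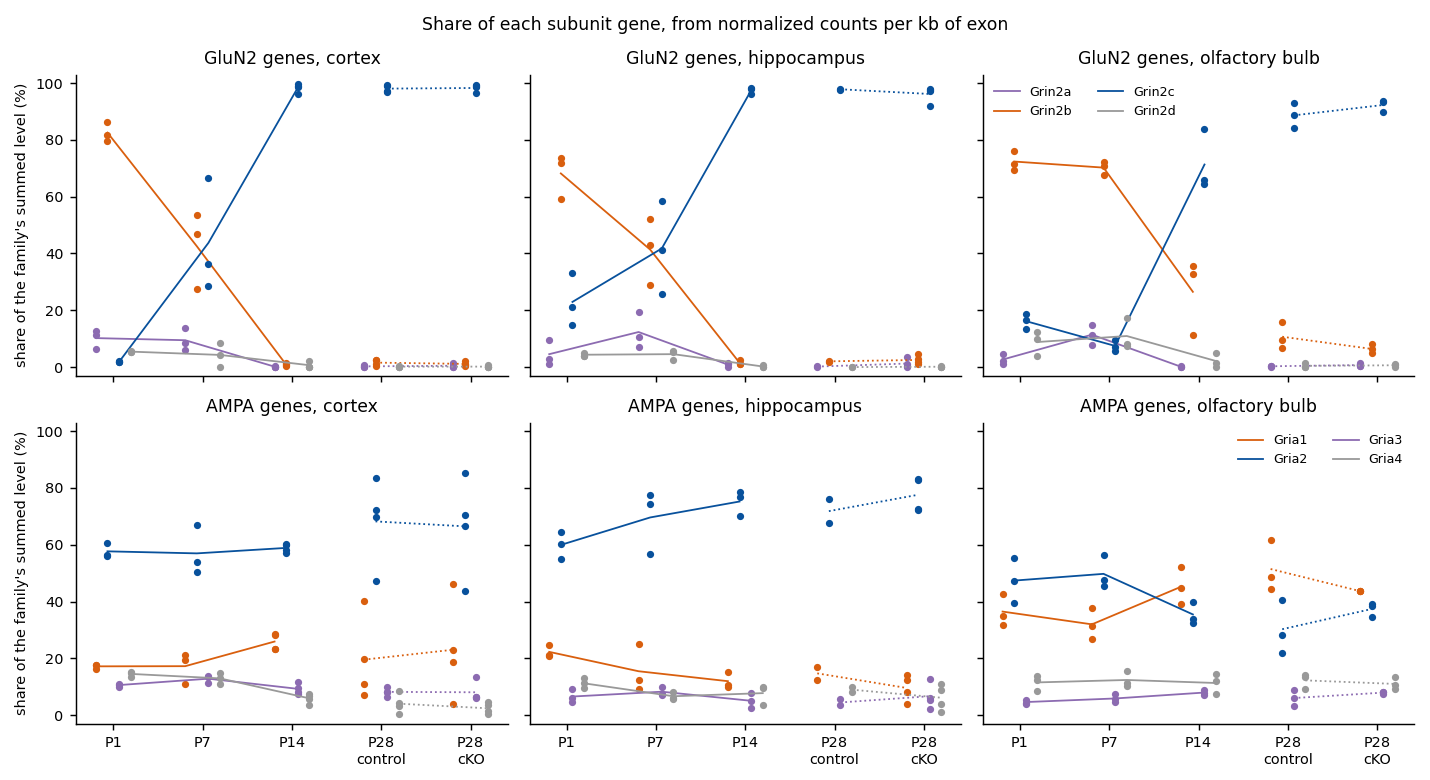
Share of each gene in the summed level per kb of exon of the 4 GluN2 genes (top) and the 4 AMPA receptor genes (bottom), in percent, for each library (points) with lines between group means, solid for the developmental tables and dotted for P28. In the top row Grin2c goes from 1.83%, 22.9% and 16.2% at P1 to 98.4%, 97.4% and 71.3% at P14, and in the bottom right panel Gria1 lies above Gria2 on average at P14, an order that turns by longest transcript (37.8% and 40.6%).

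Gria2 was the leading AMPA receptor gene per kb in cortex and hippocampus. Its share averaged 57.7% ± 2.40 (SD, n = 3) at P1 and 58.9% ± 1.42 (SD, n = 4) at P14 in cortex, and 59.9% ± 4.83 (SD, n = 3) and 75.2% ± 4.65 (SD, n = 3) in hippocampus. In olfactory bulb it averaged 47.4% ± 8.03 (SD, n = 3) at P1 and 35.5% ± 3.94 (SD, n = 3) at P14, when Gria1 averaged 45.2% ± 6.58 (SD, n = 3). With the length of the longest transcript in place of all exons, the olfactory bulb P14 shares were 40.6% for Gria2 and 37.8% for Gria1, so the order of the 2 genes turned. The P14 libraries of Gria1 and Gria2 overlapped in the olfactory bulb on the per kb scale, while in cortex and hippocampus every Gria2 value lay above every Gria1 value.

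In the order of the 10 genes per kb, cortex at P1 ran from Gria2 at 156 ± 33.3 normalized counts per kb (SD, n = 3), through Gria1, Gria4, Gria3, Grin2b, Grin3a, Grin1, Grin2a and Grin2d, to Grin2c at 0.507 ± 0.0866. Neighbouring genes in that order overlapped for Gria1 and Gria4, Gria3 and Grin2b, and Grin2b and Grin3a. By longest transcript the cortex P1 order after Gria2 was Gria3, Gria1, Gria4, Grin3a and Grin2b, with shares of the AMPA receptor genes of 14.1% for Gria3, 13.2% for Gria1 and 11.8% for Gria4. At P14 the cortical order was led by Grin2c at 127 ± 12.4 (SD, n = 4), followed by Gria2 at 47.0 ± 1.44, Grin3a at 29.7 ± 3.64 and Gria1 at 20.7 ± 2.77, none of which overlapped the next. Grin1, without whose product no NMDA receptor forms, stood at 1.12 ± 0.570 per kb. In hippocampus at P14, Gria2 led at 79.2 ± 4.88 (SD, n = 3) before Grin2c at 53.6 ± 5.06 and Grin3a at 36.1 ± 16.7, with Grin2c and Grin3a overlapping and in the other order by longest transcript. In olfactory bulb at P14, Gria1 at 229 ± 37.4 and Gria2 at 179 ± 14.6 overlapped at the top, with Gria2 first by longest transcript, before Grin3a at 84.5 ± 16.8, and Grin2c stood lower at 16.6 ± 10.6.

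Markers of other cell types moved over the same ages. The summed level of 15 neuron markers was 8639 to 12179.5 normalized counts in the cortex P1 libraries and 300.1 to 581 at P14, with 13 lower and 0 higher, 8126 to 10580.2 and 462 to 734 in hippocampus, with 12 lower and 0 higher, and 16998 to 19946 and 2019 to 3188 in the olfactory bulb, with 12 lower and 1 higher. None of the 15 was at 0 in all libraries of a group, except for Neurod6 in the olfactory bulb at P14. In the olfactory bulb, where the 4 AMPA receptor genes rose, the neuron sum was lower at P14 than at P1. The sums of the other marker lists were higher there, and the part of any list in these rises was not tested. The summed level of 8 oligodendrocyte precursor markers was 1217 to 1306 at P1 and 1084 to 1262 at P14 in cortex (3 of 8 tested higher, 2 lower). It was 367 to 572 and 927 to 1037 in hippocampus (2 of 6 tested higher, 1 lower). In the olfactory bulb it was 133 to 168 and 1191 to 1256 (4 of 6 tested higher, 0 lower). The shares of all genes called for P14 against P1, given above for each region, apply to these marker counts as well. Neu4 was at 0 in all P1 libraries of hippocampus and olfactory bulb and in all P14 libraries of hippocampus.

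The summed level of 8 mature oligodendrocyte markers was 336 to 394 at P1 and 15297 to 26088 at P14 in cortex, 76.9 to 93.6 and 1603 to 2312 in hippocampus, and 103 to 201 and 1933 to 2242 in the olfactory bulb. Opalin was at 0 in every P1 library of the 3 regions, and at P14 in all libraries of hippocampus and olfactory bulb. Mobp was at 0 in the hippocampus P1 libraries, Mog in those of P14, and Mag in the P1 and the P14 libraries of the olfactory bulb. The 8 microglia markers summed to 361 to 569.97 and 1259 to 2771 in cortex at P1 and P14, to 93.6 to 138 and 226 to 616 in hippocampus, and to 44.1 to 57.7 and 274 to 460.4 in the olfactory bulb. The 8 endothelial markers summed to 31.8 to 507 and 86.8 to 854 in cortex, 46.7 to 121 and 8.96 to 136 in hippocampus, and 19.8 to 25.8 and 296 to 1502 in the olfactory bulb, with Cldn5 and Ly6c1 at 0 in the hippocampus P14 libraries and Ly6c1 in the olfactory bulb P1 libraries. The 12 astrocyte markers summed to 21392 to 28284 and 501543 to 559467 in cortex, 13844 to 15926 and 429328 to 463622 in hippocampus, and 5060.4 to 7178 and 125006 to 142262 in the olfactory bulb. The part of these markers' cells in the changes of the receptor genes was not tested.

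Genes that act with the receptors were counted over whole lists of shared function. Of 18 AMPA receptor auxiliary subunits and assembly factors, 16 were tested in each region, and from P1 to P14 3 rose and 10 fell in cortex, 4 rose and 6 fell in hippocampus, and 4 rose and 4 fell in the olfactory bulb. Shisa9 (CKAMP44) rose in all 3 regions, from 274 to 804 normalized counts on average in cortex, 85.2 to 293 in hippocampus and, with the largest log2 difference, 157 to 2070.3 in the olfactory bulb. Its relative Shisa7 fell in all 3, with log2 differences of -3.18, -4.28 and -5.14, as did Cnih3, a cornichon subunit, with log2 differences of -3.59, -3.98 and -2.84. Cacng2, which encodes stargazin, fell in cortex and in hippocampus, where all 3 P14 libraries were at 0, and was not called in the olfactory bulb (log2 difference -1.76, adjusted p = 0.0645).

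Of 22 scaffolds and anchors of glutamate receptors, 3 rose and 13 fell of 22 tested in cortex, 3 rose and 3 fell of 21 in hippocampus, and 3 rose and 10 fell of 22 in the olfactory bulb. Camk2a, a kinase of the postsynaptic density, rose in all 3 regions, with mean levels of 144 and 1358 at P1 and P14 in cortex. Camk2b fell in cortex and hippocampus, with log2 differences of -3.34 and -2.49, and was not called in the olfactory bulb (log2 difference -0.57). Grip2 and Dlgap2, scaffold genes, both fell in cortex and olfactory bulb, with log2 differences of -5.17 and -2.75 in cortex.

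Of 11 other ionotropic glutamate receptor genes, 2 rose and 7 fell of 10 tested in cortex, 2 rose and 5 fell of 10 in hippocampus, and 3 rose and 3 fell of 9 in the olfactory bulb. Grik3, a kainate receptor gene, fell in all 3 regions, with log2 differences of -4.43 in cortex, -3.57 in hippocampus and -3.66 in the olfactory bulb. Of the 3 RNA editing enzyme genes, 3 fell in cortex, 2 in hippocampus and 3 in the olfactory bulb, and 0 rose. Adarb1, whose product edits the GluA2 codon, went from 75.4 to 21.4 normalized counts in cortex (log2 difference -1.89, adjusted p = 8.7e-04) and was the one not called in hippocampus (log2 difference -2.16, adjusted p = 0.0643).

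Among 8 genes that handle D-serine and glycine, the co-agonists of the NMDA receptor, 6 were tested, and 2 rose in cortex, 4 in hippocampus and 5 in the olfactory bulb, while 0 fell. Slc7a10, a transporter of D-serine and other small amino acids, rose by 3.26 on the log2 scale in cortex, 4.14 in hippocampus and 4.53 in the olfactory bulb. Slc6a9, the glial glycine transporter, rose in hippocampus (log2 difference 2.49) and olfactory bulb (4.95) and was not called in cortex (0.16, adjusted p = 0.451). The background shares of all genes for P14 against P1, given above for each region, apply to these lists as well.

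The genes whose pattern over the 28 developmental libraries was most like that of a member were read by Pearson's r of log2 values centred within each region, among 10838 genes tested in all 3 regions. These libraries share age, and with it astrocyte and neuron marker levels, so r is a description. For Grin2c the 3 nearest genes were Acsl3 (r = 0.974), Scg3 (0.967) and Mbp (0.962), and for Grin3a they were Arap2 (0.962), Ednrb (0.953) and Aqp4 (0.952). For Grin2b they were Myo5a (0.941), Zfp804a (0.935) and Cacna1e (0.925), and for Grin1 Serac1 (0.940), Pnck (0.894) and Srsf12 (0.890). Grin2a was nearest to Gabra5 (0.899), Gria4 to Met (0.906) and Grin2b (0.897), Gria2 to Reln (0.873), Gria3 to Nkain2 (0.899) and Gria1 to Adam11 (0.839). Between members, r was lowest for Grin2b and Grin2c (-0.85), and among the AMPA receptor genes it lay between 0.65 (Gria1 and Gria2) and 0.82 (Gria2 and Gria3).

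At P28 the comparison of Gabbr1 cKO with control asks whether loss of the GABA-B receptor subunit in astrocytes went with a change in these genes, and 0 members were called in any region. The members tested were 7 in cortex, 8 in hippocampus and 8 in the olfactory bulb. Over all genes, limma called 1 of 10188 in cortex (0.00982%), and 0 of 11639 and 0 of 11539 (0%) in hippocampus and olfactory bulb. The gene called in cortex was Gabbr1 itself (adjusted p = 4.4e-05), which was not called in hippocampus (adjusted p = 0.936) or olfactory bulb (adjusted p = 0.877). At an unadjusted p under 0.05 the members numbered 0, 0 and 1, and the genes in all 221, 296 and 349. On the recovered reads, edgeR called 1, 0 and 0 genes and DESeq2 1, 1 and 22, and neither called a member. Groups that do not overlap were found for 1.89%, 15.0% and 10% of all genes tested in the 3 regions, and for 0, 1 and 1 of the members.

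In cortex at P28, Grin2c was at 445, 403, 362 and 367 normalized counts in the controls and 309, 363, 376 and 396 in cKO. The groups overlapped, and the log2 difference was -0.13 with a 95% confidence interval of -0.52 to 0.26. Grin3a was at 136, 194, 263 and 204 in control and 83.0, 146, 199.8 and 154 in cKO libraries, also overlapping, with a log2 difference of -0.48 (-1.10 to 0.14). Gria2 was at 429, 549.95, 860.5 and 1482 in control and 531, 710.2, 811 and 1985 in cKO libraries, and Gria1 at 142, 60.7, 50.4 and 49.8 in control and 219, 90.2, 89.5 and 36.5 in cKO libraries. The spread within each genotype was wide for both, and the intervals were -0.58 to 1.08 for Gria2 and -0.61 to 1.39 for Gria1. Gria3 (-0.54 to 0.95), Gria4 (-2.59 to 1.84) and Grin2b (-2.06 to 0.88) likewise had intervals that include 0, and every adjusted p was 1. Grin1, Grin2a and Grin2d were under the level filter, with at most 15.3, 21.1 and 3.20 in any library.

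**Figure D4:**
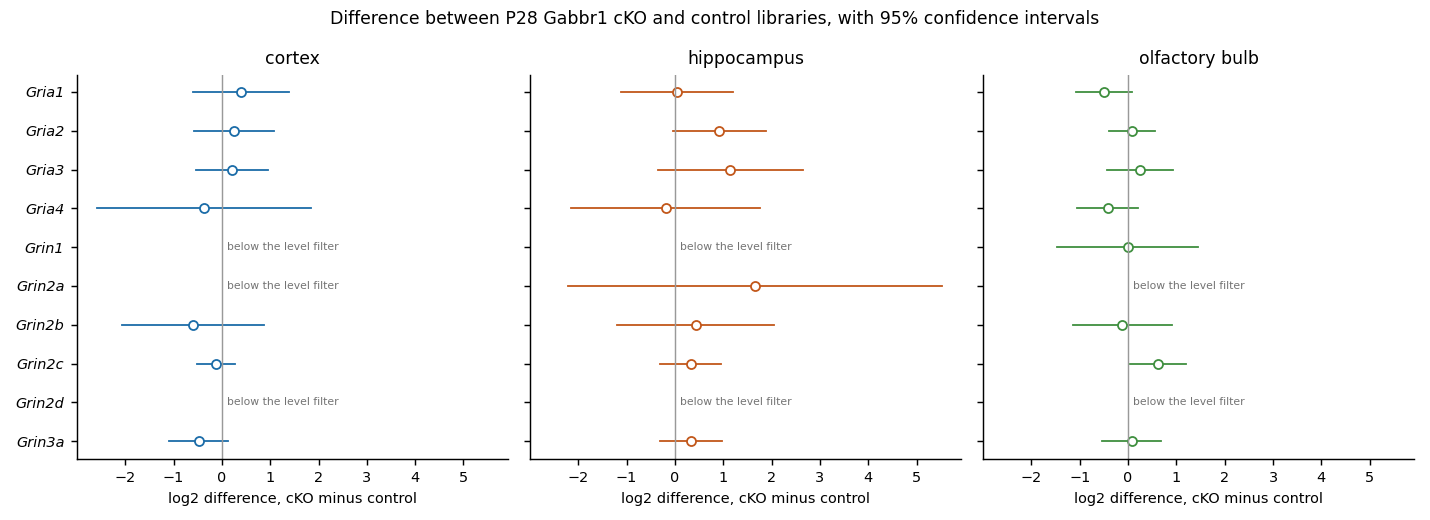
Log2 difference between Gabbr1 cKO and control libraries at P28 for each subunit gene in the 3 regions, with bars for 95% confidence intervals from limma; open points mark an adjusted p of 0.05 or more. Every interval includes 0 except that of Grin2c in the olfactory bulb, which runs from 0.04 to 1.201 and whose adjusted p is 0.877.

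The cortex libraries at P28 came in 2 label styles, which were spread over both genotypes. The 5 libraries labelled in the first style (control replicates 1 and 2 and cKO replicates 1, 2 and 3) and the 3 in the later style, whose labels name tamoxifen, did not overlap for 4 members. Gria2 was at 429 to 811 in the first and 860.5 to 1985 in the later, Gria4 at 1.05 to 18.0 and 22.1 to 42.2, and Grin2b at 4.49 to 23.2 and 42.8 to 46.3. Gria1 went the other way, at 60.7 to 219 and 36.5 to 50.4. Such a separation in either direction was seen for 16.6% of the 10188 genes. With label style as a covariate, 0 members were called for genotype, with log2 differences of 0.59 for Gria2, 0.25 for Gria4 (against -0.38 without it) and -0.14 for Grin2c. Within the styles, the cKO minus control log2 difference was 0.47 (first) and 0.81 (later) for Gria2, 0.38 and -0.45 for Gria1, and -0.28 and 0.12 for Grin2c. It was 0.29 and 0.42 for Gria3, 0.13 and 0.48 for Gria4, -0.26 and 0.02 for Grin2b, and -0.27 and -0.59 for Grin3a, the later style having a lone cKO library.

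Of the 6 marker sums, 4 did not overlap between the label styles, and those of the neuron and oligodendrocyte precursor lists did. Microglia markers summed to 157 to 207 in the first style and 698 to 1792 in the later, endothelial markers to 41.5 to 241 and 376 to 606, mature oligodendrocyte markers to 2732 to 6053 and 8534 to 14448, neuron markers to 188 to 452 and 424 to 642, oligodendrocyte precursor markers to 322 to 856 and 531 to 621, and astrocyte markers to 237611 to 305944 and 149466 to 209495. None of these markers was at 0 in all libraries of either genotype. Their part in the levels of Gria1, Gria2, Gria4 and Grin2b was not tested.

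**Figure D5:**
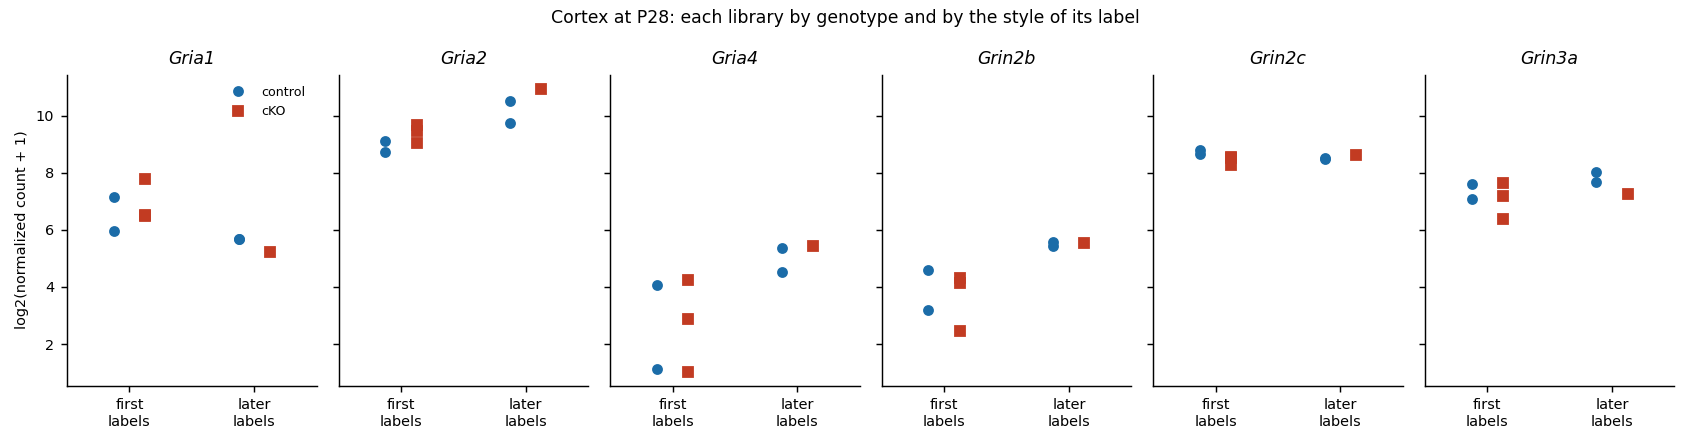
Level of 6 subunit genes in each of the 8 cortex libraries at P28, as log2(normalized count + 1), split by label style on the horizontal axis and by genotype in shape and colour. The later libraries lie above the first for Gria2, Gria4 and Grin2b and below them for Gria1, while Grin2c and Grin3a overlap between styles.

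In hippocampus at P28, Grin3a was at 196 and 191 normalized counts in the 2 controls, and the 4 cKO libraries were at 214, 260, 279 and 228. This was the member whose groups did not overlap, with a log2 difference of 0.33 (-0.30 to 0.97, adjusted p = 0.936). Grin2c was at 273 and 280.2 in control and 389, 266, 378 and 369 in cKO libraries, and Gria2 at 881 and 1179 in control and 2041, 3095, 975 and 2243 in cKO libraries. For both, 3 of 4 cKO libraries lay above the controls, and the intervals were -0.31 to 0.96 and -0.04 to 1.88. The lowest Grin2c and the highest Gria2 came from cKO replicate 2, the library with 0.594% of its reads from Rn45s, and without it the log2 differences were 0.45 for Grin2c and 0.69 for Gria2, with neither called. Gria1 was at 56.3 and 115 in control and 154, 54.9, 64.7 and 86.2 in cKO libraries, Gria3 at 25.03 and 61.4 in control and 231, 53.4, 52.7 and 92.4 in cKO libraries, and Gria4 at 37.5 and 70.3 in control and 11.6, 163, 48.7 and 41.6 in cKO libraries. All 3 overlapped between genotypes. Grin2b ranged from 24.9 to 31.3 in control and from 18.4 to 88.6 in cKO libraries, Grin2a from 0.782 to 2.67 in control and from 0 to 49.3 in cKO libraries, and Grin1 from 0.782 to 1.78 in control and from 1.44 to 27.0 in cKO libraries. The highest Grin1, Grin2a and Grin2b values were all in cKO replicate 4. Neuron markers summed to 323 to 503 in the controls and 359 to 1139.7 in cKO, oligodendrocyte precursor markers to 728 to 878 and 658 to 1261, mature oligodendrocyte markers to 4127 to 6638 and 5094 to 17622, microglia markers to 127 to 161 and 176 to 801, endothelial markers to 486 to 499 and 333 to 739, and astrocyte markers to 164031 to 182245 and 128722 to 380763. The highest neuron, oligodendrocyte precursor, mature oligodendrocyte and astrocyte sums in cKO came from cKO replicate 2, as did the highest Gria4. The highest microglia and endothelial sums did not. None of the markers was at 0 in all libraries of a genotype, and their part in these values was not tested.

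In olfactory bulb at P28, Grin2c was at 183, 279 and 223 normalized counts in the controls and 351, 399 and 296 in cKO. Every cKO library was above every control, with a log2 difference of 0.62 (0.04 to 1.201), and it did not pass adjustment over all genes (adjusted p = 0.877). Without control replicate 2, the library with 0.476% of its reads from Rn45s, the log2 difference was 0.77. Gria1 was at 3110.3, 2031 and 1587 in control and 1368, 1569 and 1661 in cKO libraries, and Gria2 at 2866, 3057 and 3715 in control and 2794, 3538 and 3831 in cKO libraries. The genotypes overlapped for both, with intervals of -1.07 to 0.08 and -0.40 to 0.55. Gria3 ranged from 264 to 613 in control and from 423 to 509 in cKO libraries, and Gria4 from 348 to 700.4 in control and from 361 to 433 in cKO libraries. Grin3a was at 761, 643 and 1122 in control and 742, 739 and 1167 in cKO libraries, Grin2b at 97.6, 257 and 79.5 in control and 88.5, 177 and 98.5 in cKO libraries, and Grin1 at 32.1, 17.0 and 15.1 in control and 10.3, 36.8 and 21.0 in cKO libraries. All 3 overlapped, and Grin2a and Grin2d were under the level filter. Neuron markers summed to 1442 to 4344 in the controls and 1036 to 2105 in cKO, oligodendrocyte precursor markers to 686 to 1331 and 819 to 1041, mature oligodendrocyte markers to 2555 to 9669 and 3142 to 4907, microglia markers to 234 to 398 and 171 to 393, endothelial markers to 88.4 to 258 and 174 to 376, and astrocyte markers to 96704 to 135896 and 118672 to 135629. The highest neuron and oligodendrocyte precursor sums in the controls came from control replicate 2, as did the highest Grin2b. The highest control sums of the other lists came from other libraries. None of the markers was at 0 in all libraries of a genotype, and their part in the Grin2c values was not tested.

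Subunit shares per kb at P28 were set side by side for the genotypes. The Grin2c share of the GluN2 genes was 98.0% ± 1.26 (SD, n = 4) in control and 98.3% ± 1.33 (SD, n = 4) in cKO cortex, 97.8% ± 0.226 (SD, n = 2) and 96.2% ± 2.84 (SD, n = 4) in hippocampus, and 88.6% ± 4.46 (SD, n = 3) and 92.3% ± 2.06 (SD, n = 3) in the olfactory bulb. The Gria2 share of the AMPA receptor genes was 68.2% ± 15.1 (SD, n = 4) and 66.5% ± 17.3 (SD, n = 4) in cortex, 71.8% ± 6.02 (SD, n = 2) and 77.6% ± 6.12 (SD, n = 4) in hippocampus, and 30.3% ± 9.32 (SD, n = 3) and 37.4% ± 2.34 (SD, n = 3) in the olfactory bulb. Libraries of control and cKO overlapped in each of these 6 comparisons, which were not tested. Of the other lists of glutamate receptor genes and partners, 0 genes were called at P28 in any region.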

How the data were processed

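Libraries of mouse astrocyte RNA, made with a Trio RNA-seq kit per the labels' protocols, were deposited as 6 tables, a developmental and a P28 table for each region. The submitters' processing notes name STAR 2.5.0a, DESeq2 1.20.0, FastQC, MultiQC and the mm10 build, while the counter, annotation and use of strand are not given in the sources used here. The deposited values are a signal per gene, read counts that the authors divided by a size factor per library, judged from the values: each library's values are whole multiples of a step in 100% of cases, within about 0.01 of a read at low counts. The tolerance widened with the count, so the check says little for the genes with the most reads. Reads recovered from these steps gave the depths and the count tests. Columns outside the series numbered 0.

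The members and lists were chosen with earlier results of these data known. Genes were tested with limma 3.58.1 (R 4.3.3) on log2(value + 1), with a mean-variance trend, for genes with a mean of at least 10 in the table, over the 3 ages together or the 2 genotypes, with Benjamini-Hochberg adjustment over all genes and a threshold of 0.05. Intervals are at 95%. The scripts were tested on simulated data. Alternatives were pseudocounts of 0.1 and 8, no level filter or a minimum mean of 100, TMM or quantile scaling, no trend, a fit of only the 2 ages compared, label style as a covariate, leaving out each library, and the recovered reads in edgeR 4.0.16 and DESeq2 1.42.0. For P14 against P1 edgeR called 7408, 5469 and 6399 genes in cortex, hippocampus and olfactory bulb, and DESeq2 called 7471, 5893 and 6753, against 7608, 5732 and 6449 by limma. Count-based limits cover counting error only. Named are all 10 members, at most the 4 genes of each other list with the largest called P14 against P1 difference, Gabbr1, and up to the 3 genes most like each member.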

Additional observations from a re-analysis of the deposited data

Results flagged for a closer look

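Within a group of 4 libraries, 1 library stood apart by Dixon's test in 5 of 40 member and group combinations tested. The test's nominal rate of about 1 in 20 assumes normally distributed values, which counts near 0 are not. Nothing is therefore read from the number flagged. Gria2 in cortex P14 replicate 4 was lowest at 696.7 normalized counts, and Grin2d in cortex P14 replicate 2 was highest at 19.5. Gria1 in cortex P28 control replicate 1 was highest at 141.6, the other 3 controls lying between 49.8 and 60.7. Grin2d in cortex P28 cKO replicate 3 was at 3.20 while the other 3 were at 0, a pattern that the test flags whatever the remaining value. Grin2c in hippocampus P28 cKO replicate 2, the library with 0.594% of its reads from Rn45s, was lowest at 265.8.

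Several members had log2 differences of opposite sign in 2 regions, with every library of the later age below those of the earlier age in one region and above them in the other. These differences between regions were not tested, since each region was scaled separately. From P1 to P14 the log2 difference of Gria1 was -1.14 in cortex and -1.86 in hippocampus against 1.35 in olfactory bulb, and that of Gria2 was -1.70 and -0.63 against 0.63. For Gria3 it was -1.94 and -1.40 against 1.83, and for Gria4 -3.03 and -1.59 against 0.99. From P1 to P7, the signs were opposite in cortex and olfactory bulb for Gria2 (-0.66 and 1.23), Gria4 (-0.80 and 1.26), Grin1 (-1.02 and 1.44) and Grin2b (-1.55 and 1.70). Grin1 was called in neither region (adjusted p = 0.0619 and 0.418). From P7 to P14 they were opposite for Grin3a (-0.65 and 1.87), and in hippocampus and olfactory bulb for Gria1 (-1.61 and 0.40). Each of these differences other than those of Grin1 was called in both regions compared.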

How the results depend on the processing

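No member's log2 difference reversed in sign while called, over the alternatives run. Over single members and settings, 1798 values stayed on the same side of the threshold, called or not, 72 lost a call and 22 gained one. The other 5 were called in neither fit, but their log2 differences moved by at least the SD within groups. No paired analysis was possible because the labels carry no replicate numbers, which were given in the order of deposit. In cortex P7 against P1, members called numbered 5, and 3 with no filter or no trend. The tallies above and the cortex member counts in this section include Grin2c. Its cortex change is given as a description only, so nothing is read from those counts. With only the 2 ages compared, hippocampus P7 against P1 gave 5 members in place of 3 and 4326 genes in place of 2092, and olfactory bulb 3514 genes in place of 1214, where DESeq2 gave 2260. A minimum mean of 100 tests fewer genes and gave, for P14 against P7, 3295 in cortex, 2067 in hippocampus and 3007 in the olfactory bulb (4 members in place of 7), and for P14 against P1, 3986, 3256 and 3413. At P28 the cortex call of 1 gene became 0 with no trend, and DESeq2 called 1 gene in hippocampus and 22 in the olfactory bulb in place of 0. The causes of these changes were not tested. Leaving out a library gave 3 to 6 members in cortex P7 against P1, 1359 to 2712 genes in hippocampus P7 against P1, 2007 to 4146 in hippocampus P14 against P7, 520 to 1706 in olfactory bulb P7 against P1, and 0 to 1 in hippocampus P28 (1 without cKO replicate 2) and olfactory bulb P28 (1 without control replicate 3). With a library left out, members called for P14 against P1 stayed at 9 in cortex, and numbered 6 to 8 in hippocampus with 5 to 8 for the olfactory bulb, while over the other settings the cortex count was 7 to 9. By longest transcript, the Gria2 share was 60.8% in cortex P1, 62.6% in cortex P14, 40.6% in olfactory bulb P14 and 42.6% in olfactory bulb P28 cKO. The median of all genes for cortex P14 against P1 was -0.27 with the deposited scaling, -0.05 with TMM and 0.03 with quantile normalization.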
